A study of Danio rerio with 6 samples.

Results

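The long arm of zebrafish chromosome 4 was examined in kidney marrow, the blood-forming tissue of the adult fish, in wild type and tet2 mutant animals. Its genes were taken by position, as every gene of chromosome 4 whose smallest start lies at or above 30000000 on the genome build GRCz10. This gave 2302 genes of the 31484 counted, with starts and ends between 30004927 and 76624990. They were set against the 791 genes of chromosome 4 below that position, called the short arm here. Total RNA of cell suspensions made from the marrow of fish aged 3 to 5 months was sequenced. The 6 libraries comprised 3 of genotype tet2 wt/wt (wild type) and 3 of genotype tet2 -/- (tet2 mutant), described as biological replicates. The labels give neither the mutant allele, the strain, the sex of the fish nor the number of fish in a library, and they name no sort of the suspension.

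The chromosome 4 long arm is known as an unusual part of the zebrafish genome. It is rich in repeats and heterochromatin, copies its DNA late in the cell cycle, and carries tandem copies of small nuclear RNA and 5S ribosomal RNA genes among expanded families of zinc finger and NLR (nucleotide-binding, leucine-rich repeat) genes. Heterochromatin is commonly marked by methylation of histone H3 and of DNA, and Tet2 is one of a family of dioxygenases that turn 5-methylcytosine into its oxidised forms. The comparison therefore asks whether genes in such a region differ between the genotypes in blood-forming tissue.

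Libraries held between 41285460 and 49229143 counts, and 3 counts, taken as the floor of detection, correspond to 0.0593 to 0.0716 CPM (counts scaled to library size with TMM factors). Such floors cover counting error only. The targeted gene TET2 stood at 48.1, 52.5 and 48.1 CPM in wild type libraries 1, 2 and 3 and at 51.1, 45.1 and 30.5 CPM in tet2 mutant libraries 1, 2 and 3. Its log2 fold change (mutant minus wild type, as throughout) was -0.23 with a standard error (SE) of 0.20 (edgeR, Benjamini-Hochberg adjusted p = 0.696), so the transcript level does not check the genotype labels. Blood markers were present in every library, with erythroid markers summing to between 8361 and 15797 CPM and neutrophil markers to between 9217 and 19838 CPM. Egg envelope transcripts, which no blood cell is known to make, stood apart. The 20 genes of this group together reached 11.9, 12.3 and 1430 CPM in wild type libraries 1, 2 and 3, and 960, 605 and 6325 CPM in mutant libraries 1, 2 and 3. In bulk RNA, fewer cells of a type and less RNA per cell cannot be told apart.

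Gene content set the long arm apart before any level was considered. It held 49.4 genes per Mb against 26.4 on the short arm. Of the 2302 long arm genes, 1059 (46.0%) had an exon length under 200 bases, against 9.73% on the short arm and 4.93% on the other chromosomes. Among genes of 200 bases or more the density was closer, at 26.7 and 23.8 genes per Mb. Those longer genes had a median exon length of 1781 bases and 4 exon blocks on the long arm, and of 2113 bases and 7 exon blocks on the short arm.

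Many of the small genes repeat 2 exact lengths. There were 605 long arm genes of exactly 107 bases, which is 95.1% of all 636 such genes in the genome, and the 3 of them that carry a name are called U6, a small nuclear RNA of the spliceosome. A further 246 were exactly 164 bases long, 85.1% of the 289 in the genome, and the 2 named ones are called U1, the small nuclear RNA that recognises the start of an intron. Nearly all were undetected, with 592 of the 605 and 230 of the 246 at 0 counts in all 6 libraries. Reads of near-identical copies are of uncertain origin, since the sources used here do not say how reads with several matches were counted.

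Altogether 1028 long arm genes (44.7%) had 0 counts in all libraries, of which 977 were under 200 bases. On the short arm 74 genes (9.36%) had none. Among genes of 200 bases or more the undetected share was 4.1% on the long arm and 1.40% on the short arm, so these longer genes were mostly detected. Detection was even across libraries, with between 1120 and 1147 long arm genes holding at least 1 count. Genes with 0 counts were also uneven along the arm. In the window from 30 to 35 Mb 283 of 400 genes had 0 counts, whereas in the last window, from 75 Mb to the end of the last gene, none of 87 did. The first of these windows held 292 genes under 200 bases and the last held 0, so the contrast is also one of gene length.

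**Figure D1:**
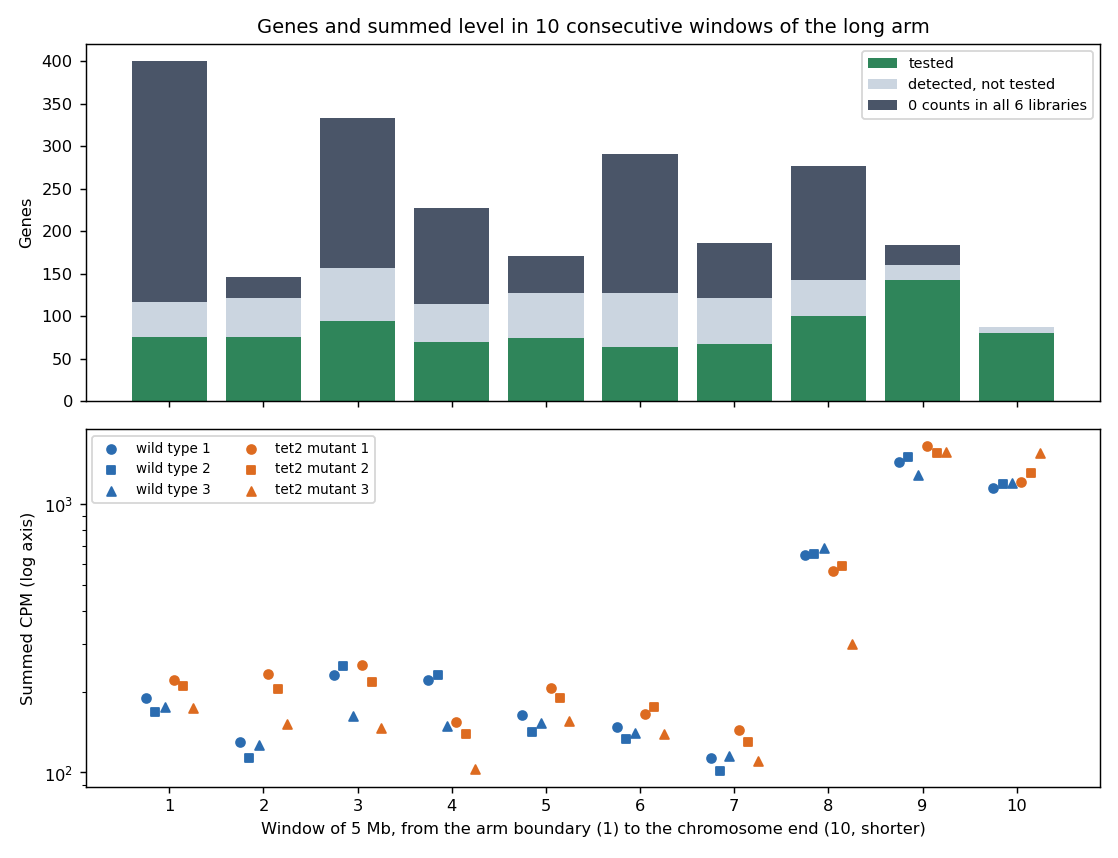
Upper panel, number of genes in 10 consecutive 5 Mb windows of the long arm (the last is shorter), split into genes tested, genes detected but not tested and genes with 0 counts in all 6 libraries. Lower panel, summed CPM of all genes of a window on a log axis, with 1 point per library. The last 3 windows carry the highest sums, and the first window has the most genes with 0 counts.

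Transcript levels on the arm were low. A filter on low counts left 847 of the 2302 genes (36.8%) for testing and 1455 untested, while 577 of 791 (72.9%) passed on the short arm. Per length, the median level of tested genes was 0.629 RPKM (CPM per kilobase of exon length) on the long arm, 3.43 RPKM on the short arm and 3.86 RPKM over all tested genes. A level of 10 RPKM was reached by 34 long arm genes (4.01% of those tested) and by 169 short arm genes (29.3%). A few genes held much of the arm's RNA, the top 10 carrying 18.7% and the top 50 carrying 50.7% of its summed CPM. Most of it came from the distal end. Genes starting at 68 Mb or beyond together held 3051, 3162 and 2976 CPM in wild type against 3236, 3253 and 3304 CPM in mutant libraries 1, 2 and 3. Of the sum in mutant 3, ENSDARG00000105712 and ENSDARG00000095486, with the library order of egg envelope RNA, held 234 and 205 CPM. In wild type 3 they held 47.8 and 48.1 CPM. Without them mutant 3 would not exceed any wild type library. All other long arm genes held between 1090 and 1558 CPM.

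The most abundant genes per length lie at that distal end, and none of them passed the genotype test. They were named by rank of mean RPKM. The highest, cct2 at 256 RPKM, encodes a subunit of the cytosolic chaperonin, but its gene model here is a fragment of 351 bases (76623605 to 76624990). Next came ms4a17a.10 (69.0 RPKM), ms4a17a.6 (60.6 RPKM) and ms4a17a.8 (48.0 RPKM), members of the MS4A family of four-pass membrane proteins. Genes for membrane traffic followed, with PACSIN2, an adaptor that shapes membranes in endocytosis, at 47.1 RPKM and the endosomal GTPase RAB21 at 32.9 RPKM. PSMB10, a subunit of the immunoproteasome, stood at 35.7 RPKM and PTPRR, a receptor-type tyrosine phosphatase, at 32.8 RPKM. The clone-named zgc:123107 (45.9 RPKM) and si:ch211-165i18.2 (32.8 RPKM) complete the 10. Among these 10 the log2 fold changes lay between -0.35 and 0.22, other than 1.24 (SE 0.28) for si:ch211-165i18.2, which did not pass (edgeR, Benjamini-Hochberg adjusted p = 0.149). That gene stood at 54.9, 34.5 and 40.9 CPM in wild type and 132, 69.2 and 107 CPM in mutant libraries, without overlap, and it passed with the replicate number as a block (edgeR, adjusted p = 0.0222).

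The summed counts of the arm took a slightly larger part of all counts in the mutants. Long arm genes held 0.411%, 0.454% and 0.438% of all counts in wild type 1, 2 and 3 and 0.463%, 0.469% and 0.460% in mutant 1, 2 and 3. The mean was 0.434% ± 0.0215 (SD, n = 3) in wild type and 0.464% ± 0.00452 (SD, n = 3) in mutant, and the groups did not overlap. Short arm genes held 2.08% ± 0.0451 and 2.09% ± 0.0245 (SD, n = 3 each), with overlap. On the TMM scale the long arm sums did overlap, at 4419, 4472 and 4184 CPM in wild type and 4794, 4698 and 4394 CPM in mutant libraries. No test was made of a sum over the arm. The greatest mean differences of all long arm genes were those of ENSDARG00000105712 and ENSDARG00000095486 (72.7 and 66.4 CPM), in both of which mutant 3 was the highest library and wild type 3 exceeded mutant 1 and 2. In mutant 3 ENSDARG00000105712 and ENSDARG00000095486 held 11855 and 10387 of 222307 long arm counts, against 4 and 7 counts in wild type 1. Without the counts of ENSDARG00000105712 and ENSDARG00000095486 the share of mutant 3 would lie below that of wild type 2. The groups would then overlap, so their separation in share rests on these genes. A difference across the rest of the arm is not shown. Without mutant 3 the difference in share between genotypes was 0.0318 percentage points, against 0.0299 with all libraries.

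Of the 847 long arm genes tested for a difference between genotypes, 8 passed at an adjusted p under 0.05 (edgeR quasi-likelihood F test, Benjamini-Hochberg over all 21893 genes tested), 4 higher and 4 lower in the mutant. This is 0.945% of them, against 0.301% (66 genes) of all genes tested and 0.173% (1 gene) of the short arm. The shares higher and lower over all genes were 0.0959% and 0.206%. Among the 25 chromosomes, with chromosome 4 split into its arms, the long arm ranked 1 of 26 for this share. All 8 were separated between the genotypes without overlap and differed more than 2-fold, which choice by adjusted p among 3 libraries each favours. Over all genes tested, 7.88% were higher and 10.3% lower without overlap. Of the 8 genes, 3 have no name and 5 carry only clone names, so no function is given for any of them.

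**Figure D2:**
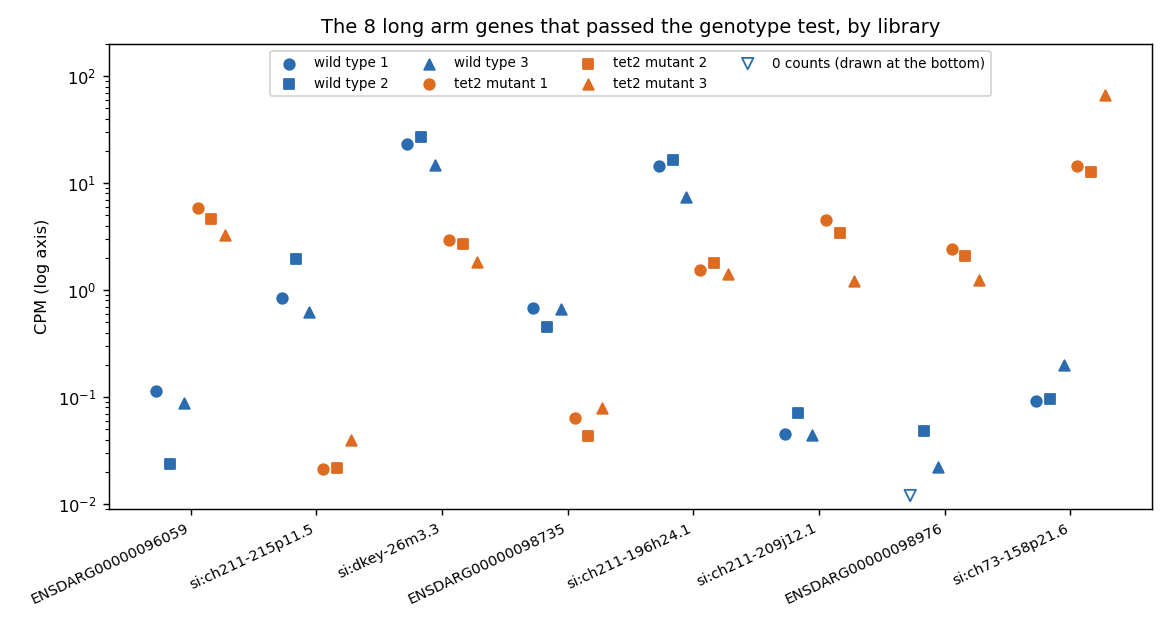
CPM (log axis) in each library of the 8 long arm genes that passed the genotype test, in order of position. Blue symbols are wild type and orange symbols tet2 mutant libraries, shapes give the replicate number, and an open triangle marks a library with 0 counts. In each gene the 3 libraries of one genotype lie entirely above those of the other.

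The genes that rose were close to silent in wild type. ENSDARG00000096059 (42409341 to 42410066, plus strand) stood at 0.114, 0.0239 and 0.0884 CPM in wild type and 5.91, 4.57 and 3.24 CPM in mutant libraries 1, 2 and 3, a log2 fold change of 5.86 (SE 0.55, edgeR adjusted p = 0.0321). Its counts in wild type (5, 1 and 4) were at or near the floor. The neighbour ENSDARG00000096134, which starts 0.62 kb downstream on the same strand and was singled out after its values were seen, stood at 0.296, 0.287 and 0.265 CPM against 1.52, 0.966 and 1.03 CPM. It did not pass (log2 fold change 2.04, edgeR adjusted p = 0.0760).

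ENSDARG00000098976 (70015510 to 70020250, plus strand) had 0, 2 and 1 counts in wild type and 116, 96 and 63 in mutant libraries. The ratio of its counts, taken per TMM-scaled library size, was 83.0, with a 95% counting interval from 28.1 to 405 (edgeR adjusted p = 0.0405). Its upstream neighbour on the same strand, ENSDARG00000101045, ends 0.705 kb away and stood at 0.0228, 0 and 0.0221 CPM against 1.01, 1.07 and 0.336 CPM (edgeR adjusted p = 0.0661, and 0.0324 with the replicate block). All 4 genes tested between 69.9 and 70.1 Mb, a stretch chosen after the values were seen, had log2 fold changes above 0.

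si:ch211-209j12.1 (67271628 to 67299294, plus strand) stood at 0.0455, 0.0716 and 0.0442 CPM in wild type and 4.50, 3.39 and 1.21 CPM in mutant libraries, a log2 fold change of 5.75 (SE 0.66, edgeR adjusted p = 0.0405). Its exons overlap another gene on the same strand, ENSDARG00000101594, so part of its reads is of uncertain origin. The greatest of the 4 rises, si:ch73-158p21.6 (74809861 to 74810868, minus strand), ran from 0.0911, 0.0955 and 0.199 CPM to 14.5, 12.6 and 67.3 CPM, a log2 fold change of 7.90 (SE 0.95, edgeR adjusted p = 0.0430). Mutant 3, the library with the most egg envelope RNA, was the highest here, while wild type 3, which also held egg envelope RNA, stayed near the floor. The neighbouring si:ch73-158p21.5, on the same strand with a gap of 2.96 kb, was likewise highest in mutant 3, at 0.0228, 0 and 0.0442 CPM against 1.77, 2.94 and 12.8 CPM. It did not pass (edgeR adjusted p = 0.0670) but did so with the replicate block (edgeR adjusted p = 0.00866).

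The 4 genes that fell lie within a single stretch of the arm. si:dkey-26m3.3 (45320241 to 45528822, minus strand) stood at 23.1, 26.7 and 14.7 CPM in wild type and 2.97, 2.68 and 1.84 CPM in mutant libraries, which is 8.62-fold lower (log2 fold change -3.11, SE 0.31, edgeR adjusted p = 0.0321). si:ch211-196h24.1 (46310208 to 46331026, minus strand) stood at 14.4, 16.5 and 7.43 CPM against 1.54, 1.78 and 1.40 CPM, 8.09-fold lower (log2 fold change -3.02, SE 0.34, edgeR adjusted p = 0.0405). In both genes wild type 3 was the lowest of its genotype and still exceeded every mutant library.

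The other two falls were of weakly expressed genes. si:ch211-215p11.5 (45204487 to 45224791, plus strand) stood at 0.842, 1.96 and 0.619 CPM in wild type and had 1, 1 and 2 counts in the mutants, a log2 fold change of -5.24 (SE 0.67, edgeR adjusted p = 0.0485). ENSDARG00000098735 (46166333 to 46167652, plus strand), a gene of 1 exon, stood at 0.683, 0.454 and 0.663 CPM against 0.0631, 0.0430 and 0.0791 CPM, a log2 fold change of -3.22 (SE 0.41, edgeR adjusted p = 0.0485).

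Between 45.2 and 47.5 Mb, limits drawn after the values were seen, 40 genes were tested. Apart from the 4 that passed, 26 of the other 36 had log2 fold changes below 0, and their median was -0.39. At an unadjusted p under 0.05, 11 of the 36 were lower and 3 higher, where 6.93% and 5.00% of all genes were. si:ch211-42i6.2, at the end of the stretch, stood just outside the threshold, with 6.06, 13.9 and 5.53 CPM in wild type and 0.863, 0.623 and 0.435 CPM in mutant libraries (log2 fold change -3.73, SE 0.50, edgeR adjusted p = 0.0539, and 0.0201 with the replicate block). The stretch is not uniform, since ENSDARG00000104918 inside it stood at 19.9, 21.3 and 15.6 CPM in wild type and 48.2, 37.1 and 20.2 CPM in mutant libraries (log2 fold change 0.89, edgeR adjusted p = 0.343). Exons of si:dkey-26m3.3 overlap those of si:dkey-31n13.3 and si:ch211-215p11.1 on the same strand, so these 3 genes are not independent observations. si:dkey-31n13.3 had a log2 fold change of -2.31 (SE 0.34, edgeR adjusted p = 0.0661) and si:ch211-215p11.1 one of -1.82 (edgeR adjusted p = 0.0766). Both passed with the replicate block (edgeR adjusted p = 0.0135 and 0.0256).

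**Figure D3:**
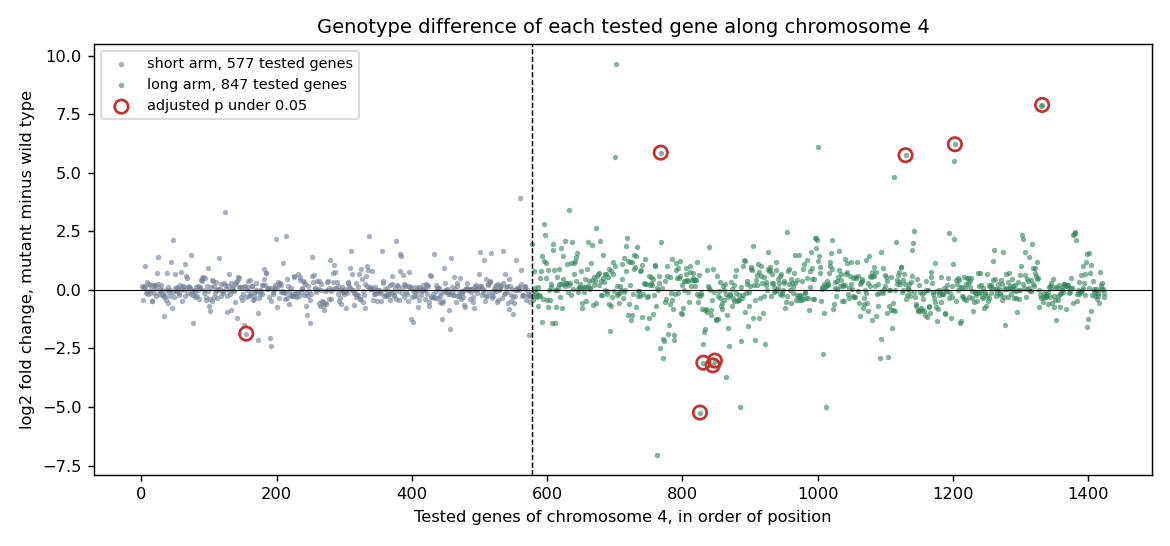
Log2 fold change (mutant minus wild type) of each of the 1424 tested genes of chromosome 4, in order of position. The dashed line separates the 577 short arm genes from the 847 long arm genes, and red circles mark the genes with an adjusted p under 0.05. The long arm points are spread more widely around 0, and the 4 circled falls stand close together.

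Several genes with large differences did not pass. Ranked by size among genes at an unadjusted p under 0.05, without overlap and with at least 1 CPM in the higher genotype, 104 were higher (12.3%, against 3.78% of all genes) and 50 lower (5.90%, against 5.35%) in the mutant. The first by fitted size was si:ch211-209n20.60 (38126501 to 38135543), with no count in any wild type library and 138, 154 and 21 counts in the mutants. Taking a floor of 3 counts over the wild type group, it was 94.5-fold higher, with a 95% counting lower limit of 76.4-fold (edgeR adjusted p = 0.123). Its exons overlap, on the opposite strand, those of si:ch211-209n20.1, and the strand setting of the counting is not known. That partner stood at 0.546, 0.525 and 0.0663 CPM in wild type and 24.2, 30.7 and 3.52 CPM in mutant libraries (log2 fold change 5.68, SE 1.06, edgeR adjusted p = 0.105). In both genotypes library 3 was the lowest by several fold.

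With the replicate number as a block, both of these genes passed (edgeR, adjusted p = 0.0284 and 0.00241). The block raised the long arm count to 37 genes (20 higher, 17 lower), which include all 8. This is 4.37% of those tested, against 2.14% of all genes and 10 genes on the short arm. At an unadjusted p under 0.05 the block gave 17.9% higher and 11.5% lower on the long arm, against 9.43% and 8.49% of all genes. Further genes in the ranking were si:ch211-241n15.3, with 2, 0 and 0 counts in wild type and 89, 64 and 23 in mutants, and ENSDARG00000090734, at 32.7, 27.9 and 11.6 CPM against 4.19, 4.12 and 2.49 CPM (edgeR adjusted p = 0.0838 and 0.0730). The latter was 6.68-fold lower in the mutant by its fitted value. ENSDARG00000100859 (log2 fold change -2.89) and si:ch211-208f21.3 (log2 fold change -2.18) were also lower without passing (edgeR adjusted p = 0.0899 and 0.0873). These 4 genes passed with the replicate block (edgeR adjusted p between 0.0111 and 0.0394). Among the 10 smallest p was also si:dkey-254e13.6 (58842360 to 58872200), at 0.501, 0.406 and 0.420 CPM in wild type and 2.19, 2.10 and 1.5 CPM in mutant libraries, without overlap. Its log2 fold change was 2.12 (SE 0.30, edgeR adjusted p = 0.0626, and 0.0373 with the replicate block), and its exons overlap other genes on both strands.

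A run of clone-named genes between 73877474 and 74446113, picked after the values were seen, was higher in the mutants. si:dkey-71l4.1 stood at 10.2, 8.76 and 4.53 CPM in wild type and 33.5, 27.0 and 31.1 CPM in mutant libraries (log2 fold change 1.96, SE 0.31, edgeR adjusted p = 0.0708, and 0.0288 with the replicate block). si:dkey-71l4.3, si:dkey-71l4.5 and si:ch211-266c8.1 had log2 fold changes of 1.64, 2.17 and 2.34, and none passed, with or without the replicate block (edgeR adjusted p between 0.106 and 0.270 without it). In each of these 4 genes wild type 3 was the lowest library and no library overlapped between genotypes. Their neighbours si:dkey-71l4.4 and si:dkey-71l4.2, within the same run, had log2 fold changes of 0.24 and -0.31. Sharing of reads among near-identical copies was not tested.

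Differences short of the adjusted threshold were also more common on the long arm. At an unadjusted p under 0.05, 142 genes were higher (16.8%, against 5.00% of all genes) and 82 lower (9.68%, against 6.93%) in the mutant. With a term for egg envelope RNA the share lower was 5.19%, against 5.28% of all genes. On the short arm 23 were higher and 24 lower. The genotypes did not overlap in 183 genes that were higher (21.6%, against 7.88% of all genes) and in 111 that were lower (13.1%, against 10.3%). The median log2 fold change was 0.10 on the long arm (quartiles -0.30 and 0.59), -0.01 on the short arm and 0.02 over all genes tested. Among long arm windows the median ran from -0.35 at 45 to 50 Mb, where 21 genes were lower and 6 higher at an unadjusted p under 0.05, to 0.36 at 55 to 60 Mb, where 2 were lower and 19 higher.

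The size of the differences was examined in genes with a mean of at least 1 CPM, since low counts alone give large fold changes. Of the 504 such genes on the long arm, 98 (19.4%) differed at least 2-fold, against 31 of 459 (6.75%) on the short arm and 8.62% over all genes. The long arm genes were nevertheless less abundant, with a median of 3.35 CPM against 15.1 CPM, and more variable, with a median biological coefficient of variation of 0.327 against 0.269. Split by level, with limits set once the data were known, the share at least 2-fold apart was 19.6% of 225 long arm genes between 1 and 3 CPM and 18.7% of all genes at that level. From 3 to 10 CPM it was 18.2% of 187 against 12.2%, from 10 to 30 CPM 18.3% of 60 against 5.50%, and from 30 CPM upward 28.1% of 32 against 3.29%. The share from 30 CPM upward rests on 9 genes. Among them were ENSDARG00000105712 and ENSDARG00000095486, which had the library order of egg envelope RNA and overlapped between genotypes. Also among them were slco1f2, slco1f4 and, from the clone-named run above, si:ch211-266c8.1 and si:dkey-71l4.3. By this 2-fold measure the excess was thus found from 3 CPM upward and was slight between 1 and 3 CPM. Under 1 CPM, outside this set, the share was 25.1% of 343 long arm genes against 20.9% of all genes. By an unadjusted p under 0.05 (edgeR) the long arm was also above all genes at both low levels. The shares were 24.5% against 12.9% under 1 CPM and 25.3% against 16.0% between 1 and 3 CPM.

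**Figure D4:**
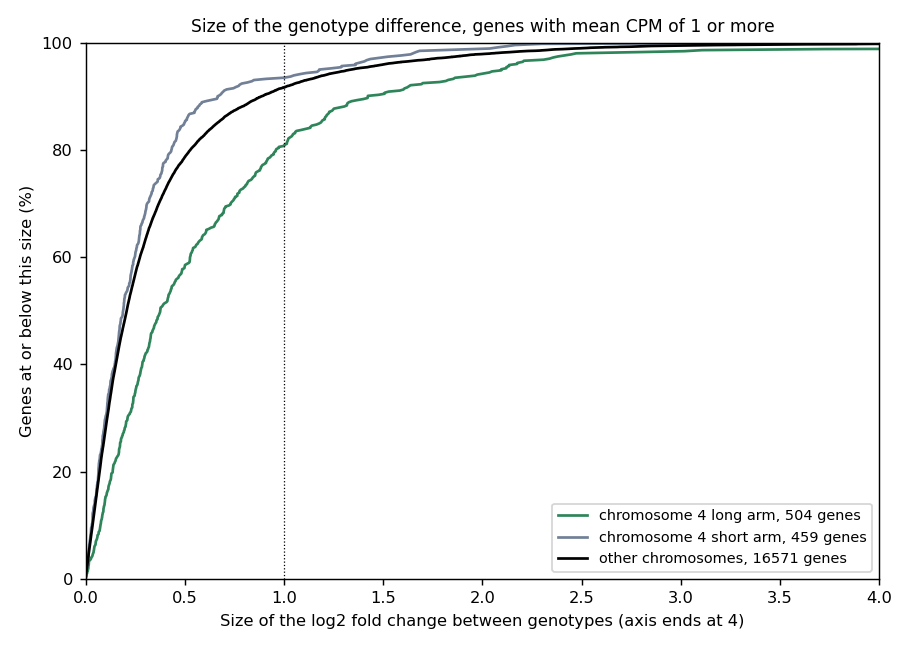
Cumulative percentage of genes by the size of their log2 fold change between genotypes, for genes with a mean of at least 1 CPM on the long arm (504), the short arm (459) and the other chromosomes (16571). The dotted line marks a 2-fold difference, which 19.4% of long arm and 6.75% of short arm genes reached or passed.

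The count of 8 depends on the fit and the libraries. DESeq2 called 105 of 988 long arm genes (10.6%), against 4.13% of all genes and 15 short arm genes, and all 8 genes were among them. With limma-voom 5 passed, against 0.343% of all genes, of which 3 belong to the 8. With a term for egg envelope RNA 9 passed, against 0.256%, of which 4 belong to the 8. There ENSDARG00000098976, si:ch73-158p21.6, si:ch211-215p11.5 and ENSDARG00000098735 did not pass (edgeR adjusted p between 0.0575 and 0.107). At an unadjusted p under 0.05 with that term, 16.9% of long arm genes were higher, against 5.88% of all genes. The share lower was 5.19%, against 5.28%, so the excess of lower genes was not seen with that term. Without both libraries numbered 3 the count was 29 of 873, against 1.43% of all genes and with 7 of the 8 among them, and 22.0% of genes with at least 1 CPM were at least 2-fold apart. Leaving out single libraries left 0 passing genes without wild type 1, wild type 2, mutant 1 or mutant 2, 3 without wild type 3 and 2 without mutant 3, in fits in which between 2 and 15 genes passed genome-wide. At an unadjusted p under 0.05 between 10.5% and 20% of long arm genes were higher in those fits, against between 2.80% and 6.47% of all genes. Between 6.26% and 9.92% were lower, against between 4.27% and 7.26% of all genes, and without wild type 1 the long arm share (6.46%) was below that of all genes (7.26%). All 8 genes kept their direction in every fit. Genes without overlap keep it whenever a library is left out, so those fits could not show otherwise. Library 3 was the lowest wild type library in 47.6% of tested long arm genes (34.3% of all genes) and the lowest mutant library in 61.5% (39.6%), and its part in the differences was not tested.

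Zinc finger genes, which encode DNA-binding proteins, are the largest named family of the arm. Of 214 genes genome-wide with a symbol beginning znf in lower case, 100 (46.7%) lie on the long arm and 4 on the short arm. Symbols beginning ZNF in capitals were not counted, so the share of all such genes may be lower. They were weakly expressed, with a median of 0.354 RPKM among the 71 tested and a highest level of 3.58 RPKM. No direction prevailed, with 36 above and 35 below 0 and a median log2 fold change of 0.00. None passed (edgeR), and DESeq2 called 6, where it called 4.13% of all genes. At an unadjusted p under 0.05 (edgeR) 9 of the 71 were higher and 6 lower. The shares were 5.00% and 6.93% over all genes, and 16.8% and 9.68% over the long arm. The most abundant, znf1115, stood at 2.57, 1.93 and 2.32 CPM in wild type and 6.80, 5.48 and 3.60 CPM in mutant libraries (log2 fold change 1.22, SE 0.30, edgeR adjusted p = 0.181), and its exons overlap another gene on the same strand. In the opposite direction znf1057, named after its values were seen, stood at 1.02, 0.621 and 0.553 CPM against 0.126, 0.129 and 0.158 CPM (log2 fold change -2.39, SE 0.40, edgeR adjusted p = 0.0828). znf989 was highest in mutant 3, at 10.8 CPM against 2.29 and 1.95 CPM in mutant 1 and 2.

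Other named families were small by symbol. The NLR genes, cytosolic sensors of the innate immune system, were represented by nlrp12l2 and nlrc3l2, at 0.486 and 0.310 RPKM with log2 fold changes of 0.53 and 0.48 (edgeR adjusted p = 0.625 and 0.540). Of the TRIM genes, which include the fish-specific finTRIM group, trim24 stood at 6.93 RPKM, ftr51 at 3.42 RPKM and ftr64 at 2.94 RPKM, with log2 fold changes between -0.58 and 0.14 and none passing. Most genes of the arm cannot be assigned to a family this way, because 1490 have no symbol and 622 carry clone names.

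The organic anion transporters of the slco1 family, picked out after their values were seen, lie between 70576833 and 76047519. slco1f4 stood at 24.3, 73.9 and 57.2 CPM in wild type and 16.7, 26.2 and 19.0 CPM in mutant libraries (log2 fold change -1.33, SE 0.41, edgeR adjusted p = 0.271). slco1f2 stood at 31.4, 71.2 and 92.1 CPM against 29.8, 24.5 and 27.5 CPM (log2 fold change -1.25, SE 0.37, edgeR adjusted p = 0.257), and slco1f1 had a log2 fold change of -1.40 (edgeR adjusted p = 0.387). Wild type 1 was the lowest wild type library for all 3 genes. Exons of slco1f2 overlap those of slco1f3 and slco1e1 on the same strand, so part of their reads is of uncertain origin. Of the other tested members, slco1d1 had a log2 fold change of 1.58 (SE 1.80), at 0.205, 6.64 and 0.619 CPM in wild type and 0.189, 21.3 and 0.889 CPM in mutant libraries, and slco1f3 one of 0.08 (edgeR adjusted p = 0.769 and 0.980). Kidney tubule markers were also lower in sum, at 403, 586 and 412 CPM in all in wild type libraries against 217, 275 and 226 CPM in mutants, with 4 of 5 lower at an unadjusted p under 0.05 and none passing (edgeR), and 4 of 5 passing with DESeq2 and with the replicate block. Their part in the slco1 values was not tested. Of the 13 ms4a17a genes, all tested and spanning 0.128 to 69.0 RPKM, 5 were above and 8 below 0, and none passed (edgeR).

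A small group of long arm genes had the library order of egg envelope RNA. By a rule of at least 4-fold higher and at least 1 CPM in wild type 3 than in both other wild type libraries, 6 of the 847 genes (0.708%) qualified, against 2.14% of all genes. Of these, 5 lie in a stretch of 26.6 kb from 75536652 to 75563292. ENSDARG00000105712 stood at 0.0911, 0.0716 and 47.8 CPM in wild type and 18.1, 13.6 and 234 CPM in mutant libraries. ENSDARG00000095486 stood at 0.159, 0.0955 and 48.1 CPM and 25.1, 17.2 and 205 CPM. Wild type 3 exceeded mutant 1 and 2 in both, the groups overlapped, and neither passed (log2 fold changes 2.47 and 2.35, edgeR adjusted p = 0.707 and 0.704). zgc:173770, si:dkey-172k15.14 and si:dkey-172k15.17 in the same stretch, and si:cabz01069023.1 at 72227899, had the same order of high and low libraries. Exons of zgc:173770 and ENSDARG00000105712 overlap on the same strand, so those genes are not independent observations. The likeness to egg envelope RNA among wild type libraries was set by the rule. Egg envelope RNA was itself higher in every mutant library than in wild type 1 and 2. Whether egg RNA or genotype accounts for these genes was not tested.

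**Figure D5:**
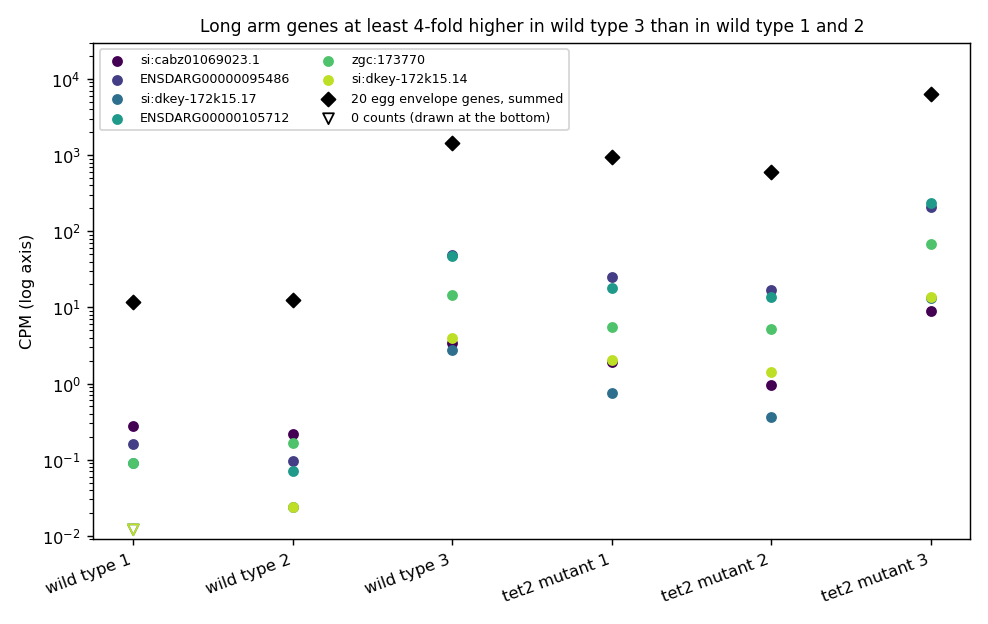
CPM (log axis) in each library of the 6 long arm genes at least 4-fold higher in wild type 3 than in wild type 1 and 2, with black diamonds for the summed CPM of 20 egg envelope genes. Open triangles mark libraries with 0 counts. In every gene wild type 1 and 2 are lowest and mutant 3 is highest, as for the egg envelope genes. The contrast among wild type libraries was set by the choice of genes.

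Regulators of heterochromatin and of histone and DNA methylation were examined beside the arm, as a list of 38 symbols of which 30 matched and were tested. None passed (edgeR, and 0 by DESeq2), and the median log2 fold change was 0.08, with 19 above and 11 below 0. At an unadjusted p under 0.05 (edgeR) 2 of the 30 were higher and 0 lower, where 5.00% and 6.93% of all genes were. The first of the pair, HELLS, a chromatin remodeller needed for DNA methylation of repeats, stood at 50.4, 27.8 and 39.4 CPM in wild type and 50.8, 61.0 and 78.9 CPM in mutant libraries (log2 fold change 0.70, SE 0.26, edgeR adjusted p = 0.363). The other, CDCA7, its partner protein, stood at 38.2, 26.0 and 37.7 CPM against 44.2, 45.5 and 72.9 CPM (log2 fold change 0.67, SE 0.25, edgeR adjusted p = 0.365). Both were highest in mutant 3.

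At the boundary itself the first genes inside were ENSDARG00000101091 and znf1128, and the last outside were ENSDARG00000094147 and ENSDARG00000093361. ENSDARG00000101091 (30004927 to 30011300) had a mean of 1.04 CPM in wild type and 4.09 CPM in mutants (log2 fold change 1.97, SE 0.28, edgeR adjusted p = 0.0634, and 0.0409 with the replicate block). The other 3 had log2 fold changes between -0.45 and -0.10. The short arm gene that passed, si:ch73-352p4.8 (5789653 to 5801524), stood at 4.37, 4.92 and 4.13 CPM in wild type and 1.30, 1.29 and 1.09 CPM in mutant libraries, a log2 fold change of -1.86 (SE 0.23, edgeR adjusted p = 0.0461). Its exons overlap a gene on the opposite strand.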

How the data were processed

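The authors deposited unnormalised read counts for Ensembl genes, with a separate table for each library. Per the submitters' processing notes, Trimmomatic 0.36, STAR 2.5.2b and the genome build GRCz10 were used. Which tool counted the reads, with which strand and multiple-match settings and on which annotation, is not given in the sources used here.

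Genotypes were compared in R 4.3.3 with edgeR 4.0.16 on all 6 libraries (filterByExpr by genotype, TMM scaling, two-sided quasi-likelihood F test, genotype as the only term), with Benjamini-Hochberg adjustment over all 21893 genes tested and a threshold of 0.05. DESeq2 1.42.0 and limma 3.58.1 served as alternatives, and the edgeR procedure was tested on simulated data. Those simulated counts held no replicate pairing, egg envelope RNA or shared reads, so they do not bear on such features here. P-values set the genotype difference against the spread between these libraries, and the number of fish in a library is not known. CPM values are scaled by TMM, RPKM divides CPM by the deposited exon length, and SE were computed from log2 fold changes and F values. Symbols came from a name table (25752 of 31484 gene IDs) and are printed as it gives them. Families were assigned by symbol only, because the planned use of RefSeq descriptions and protein motifs had no table to draw on. RefSeq synonyms (GRCz12tu) were used only to match names.

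Long arm genes were named if they passed, ranked among the 10 smallest p or the 10 highest RPKM, were among the 8 largest rises or falls described above, led a family by RPKM or lay at the boundary. Other genes are said to be chosen after their values were seen. The members, lists and rules were chosen with earlier results of these data known.

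Replicate numbers of the labels carry no stated meaning. Residuals of log2 CPM about the mean of a genotype correlated at r = 0.437, 0.645 and 0.740 between libraries numbered 1, 2 and 3, and at -0.585 to 0.242 between differently numbered ones (12910 genes, which are not independent replicates). Such residuals sum to 0 within a genotype, so these values are not independent of each other. On 504 long arm genes the same-number values were 0.461, 0.420 and 0.547. Library 3 also held the most egg envelope RNA of each genotype (1430 and 6325 CPM), and what a number shares was not tested. The pairing is thus read from the same data to which the block was applied, and blocked values are given where they change a call. Counts of libraries of the same genotype differed with a chi-square of 56.4 to 167 per degree of freedom, so none was a copy.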

Additional observations from a re-analysis of the deposited data

How the results depend on the processing

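The number of long arm genes passing was 8 as reported, 5 with limma-voom, 105 with DESeq2, 37 with the replicate block and 29 without both libraries numbered 3, and it ran from 0 to 3 with 1 library left out. On the short arm the number was 1 as reported, 3 with limma-voom, 15 with DESeq2, 10 with the replicate block, 0 with the egg covariate (edgeR, with 25 genes higher and 27 lower at an unadjusted p under 0.05), 5 without both libraries numbered 3 and 0 in each fit with 1 library left out. The median log2 fold change of the long arm was 0.10 and moved to 0.19 with the egg covariate. It ran from 0.04 to 0.16 with 1 library left out, and that of the short arm from -0.048 to -0.0063. Moving the boundary to 25 or 35 Mb, RLE size factors and no low-count filter changed none of these counts by over 1.5 times. The difference in share of counts, 0.0299 percentage points, stayed above 0 under all alternatives run. It was 0.0183 (without wild type 1) to 0.0396 (without wild type 2) with 1 library left out. None of these alternatives left out the genes with the library order of egg envelope RNA. The 98 long arm genes at least 2-fold apart were 94 with the replicate block, 110 with the egg covariate and 111 without both libraries numbered 3, alternatives chosen after seeing the data. Of the 19 genes followed across fits, none changed direction. All had no overlap between genotypes, so leaving out libraries could not have reversed them. Taking each gene in each fit, 66 values no longer passed, 31 newly passed and 150 stayed on the same side of the threshold, and the cause was not tested. At this depth, a gene with 0 counts in a library is bounded by 0.0593 to 0.0716 CPM.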

Other observations

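Immune and nuclear genes with descriptive names, picked out after their values were seen, also lie on the arm. mhc2d4b, of the class II antigen presentation genes, stood at 84.6, 120 and 73.3 CPM in wild type and 79.2, 92.8 and 65.0 CPM in mutant libraries, and gbp4, an interferon-induced GTPase, at 5.24, 2.94 and 7.54 CPM and 4.0, 2.53 and 1.88 CPM. The interleukin 17 receptor gene il17ra1b stayed under 0.6 CPM in every library. NUP50, a nuclear pore component, stood at 96.5, 72.3 and 79.5 CPM against 96.8, 121 and 96.8 CPM, and terfa, which binds telomere repeats, at 50.5, 53.2 and 59.5 CPM against 56.9, 51.1 and 58.5 CPM. None of the 5 passed the test (edgeR adjusted p of 0.731, 0.483, 0.892, 0.472 and 0.944 for mhc2d4b, gbp4, il17ra1b, NUP50 and terfa).

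One gene of 107 bases, ENSDARG00000084669, also picked after its values were seen, had 47 counts over the wild type libraries and 0 over the mutants. It was 17.3-fold lower in the mutants, taking a floor of 3 counts over the group, and did not pass (edgeR adjusted p = 0.0831). That value leaves out the counting error in wild type.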
